A study of Mus musculus with 12 samples.

Results

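Calcitriol, the hormonally active form of vitamin D, was compared with its ethanol vehicle in colonic organoids from Vdr-knockout mice, which the labels describe as lacking the vitamin D receptor. The 6 arrays titled as knockout control or knockout treatment were taken, out of 12 in the study. Each of 3 knockout mice of the strain C57BL/6 gave 1 vehicle array and 1 calcitriol array, and the number in the title joins the arrays of a mouse. The hormone was used at 100 nM and renewed every 48 h with the medium, and the duration is given as 72 h in the design text and as 62 h in the sample descriptions. Mice 1 and 3 were 2 months old and mouse 2 was 3 months old. The other 6 arrays hold the same treatments in organoids from 3 wild-type mice of the same strain and ages, and they serve as the positive control. The organoids were grown in a gel from isolated colon crypts and enriched for stem cells, as labelled, and no other cell type was added on purpose as far as the labels say. The labels used here do not name the Vdr allele. The question is whether any transcript responded to the hormone without its receptor.

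The vitamin D receptor is a nuclear receptor that binds calcitriol, pairs with a retinoid X receptor (Rxra, Rxrb or Rxrg) and binds response elements made of a repeated hexamer with a spacer of 3 bases. In intestine its best known targets are Cyp24a1, the hydroxylase that degrades calcitriol, and the genes of calcium absorption: Trpv6, the apical calcium channel, S100g, the calcium-binding protein calbindin of the cytosol, and Atp2b1, the basolateral calcium pump. Responses that bypass the receptor have been proposed through Pdia3, a disulfide isomerase also described as a membrane binding protein for calcitriol, through sterol synthesis, through Hedgehog signalling and through other sterol-sensing nuclear receptors.

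Levels are log2 of the processed spot signal minus the 75th percentile of the array, so a level of 0 equals that percentile. An effect is the level in calcitriol minus that in vehicle, and an effect of 1 is 2-fold. Across 24242 genes, p-values came from limma in 1 fit of all 12 arrays and were adjusted by the Benjamini-Hochberg method, and a gene was called at an adjusted p under 0.05. The 75th percentile signal lay between 588.0 and 759.1 on the 6 knockout arrays, and 55.0% to 66.4% of spots were well above background. The knockout vehicle arrays of mice 1 and 2 were on slide 1 and their calcitriol arrays on slide 3, the largest slide, while mouse 3 had its vehicle array on slide 3 and its calcitriol array on slide 2. No knockout mouse had both arrays on 1 slide. Slide 1 held only the knockout vehicle arrays of mice 1 and 2. With slide alone as a block, or on slide 3 alone, knockout vehicle therefore rested on 1 array, that of mouse 3. Calcitriol arrays of mice 1 and 2 were set against it, so those estimates do not use the pairing and mix mouse with treatment. The labelled sexes of replicates 1 and 2 went against the data in both genotypes: the Y-linked gene Ddx3y lay at 0.56 and 0.75 on the knockout arrays of mouse 2, labelled female, and between -7.95 and -7.60 on those of mouse 1, labelled male, and mouse 3, labelled female. The sex labels were not used.

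Vdr itself, the targeted gene, differed between the genotypes as labelled. Its probe read -0.35, 0.08 and 0.25 in knockout vehicle and -0.43, -0.20 and 0.37 in knockout calcitriol, and it was well above background on all 6 arrays. On the wild-type arrays it read 0.82 to 2.01, above every knockout array. Where the probe lies relative to the deleted part is not given in the sources used here, so a signal from this probe does not show whether functional receptor RNA remained. Its effect in knockout was -0.08 (SE 0.26, adjusted p = 1.0). Genotype and slide were not balanced, but the 3 knockout arrays on slide 3 also lay below the 4 wild-type arrays there.

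No gene was called for calcitriol in knockout. Of 24242 genes, 0 passed (0%), and the smallest adjusted p was 0.841. With the mouse as a block, which uses the pairing, 0 passed again (0%) and the smallest adjusted p was 0.575. At an unadjusted p under 0.05 there were 1400 genes (5.78%), of which 1310 were higher (5.4%) and 90 lower (0.371%), and with the mouse as a block there were 1939 (8%). The split depended on the scaling and on the block: with arrays scaled to their median it was 325 higher and 105 lower, with the mouse as a block 1333 and 606, and with slide as a block 903 and 524. The same fit called 39 genes in wild type (0.161%), where 1103 (4.55%) had an unadjusted p under 0.05. A fit that blocked on slide called 0 genes in knockout and had 1427 at an unadjusted p under 0.05. A fit of only the 7 arrays of the largest slide also called 0 and had 2643.

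How small an effect could be seen differed between genes. The 95% interval of the effect lay within 2-fold either way for 15508 genes (64%), and for 16971 (70%) with the mouse as a block. The median half-width of the interval was 0.56 on the log2 scale, and 0.37 with the block. For these genes an effect over 2-fold lies outside the interval, and for the others the interval reached past 2-fold on at least 1 side. The estimates over 2-fold, 1051 in all, came mostly from dim probes: 204 of them were among the 20750 genes well above background on all 6 knockout arrays.

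Cyp24a1, the most responsive gene in wild type, stayed below background in every knockout culture. It read -7.70, -7.60 and -7.96 in knockout vehicle and -6.25, -8.18 and -7.72 in knockout calcitriol, and 0 of 6 arrays were well above background. The groups overlapped, and no fold is given because both lie in the background. In the wild-type cultures the same probe read 5.59, 5.88 and 6.45 with calcitriol, and all 3 arrays were well above background. The transcript thus reached a measured level under the hormone in each wild-type culture and in none of the knockout cultures, and 1 of 3 wild-type vehicle arrays was above background.

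S100g, unlike Cyp24a1, was well above background on all 6 knockout arrays. It read -1.23, -1.60 and -1.40 in vehicle and -1.38, -1.12 and -1.33 in calcitriol. The groups overlapped, 2 mice were above 0 and 1 below, and the effect was 0.13 (SE 0.17, 95% interval -0.24 to 0.51, adjusted p = 1.0). In wild type the effect was 7.50, and the difference between genotypes was 7.37 (adjusted p = 3.69e-08). A second S100g probe gave a mean of 0.11 over the 3 knockout mice. With slide as a block the knockout effect was 0.20, and within the largest slide 0.15.

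**Figure D1:**
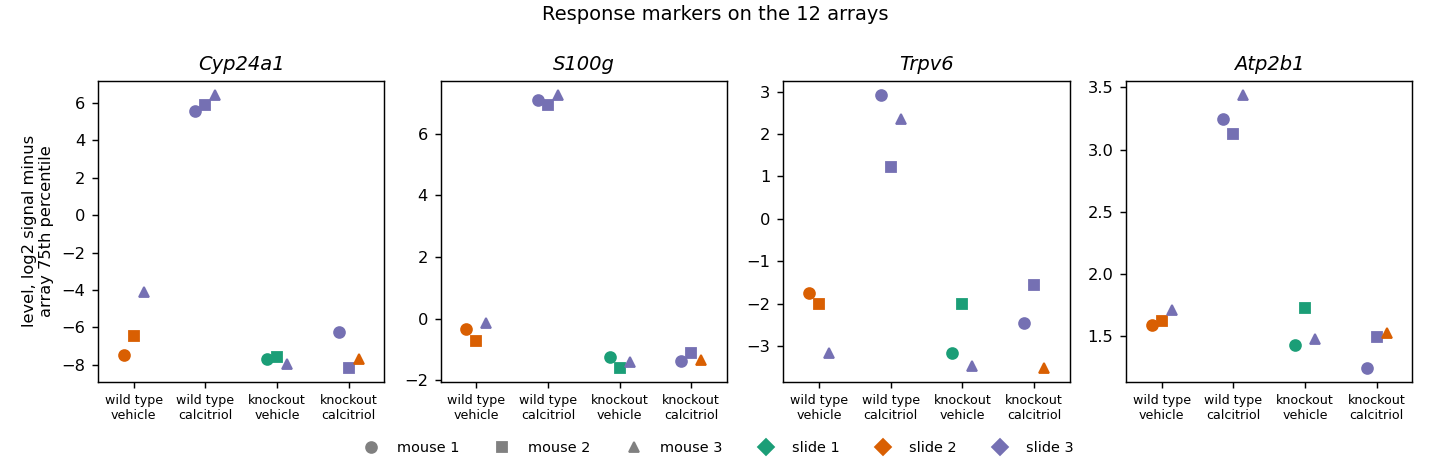
Levels of Cyp24a1, S100g, Trpv6 and Atp2b1 (y axis, log2 signal minus the array's 75th percentile) in the 4 groups (x axis); each point is 1 array, its shape gives the mouse and its colour the slide. The wild-type calcitriol arrays stand above the other groups for each gene, and the knockout calcitriol arrays overlap the knockout vehicle arrays, as for S100g at -1.38 to -1.12 against -1.60 to -1.23.

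Trpv6 and Atp2b1, which take up and export calcium, were not called in knockout either. Trpv6 read -3.15, -2.01 and -3.47 in knockout vehicle and -2.45, -1.56 and -3.51 in knockout calcitriol. Its effect was 0.37 (SE 0.59, 95% interval -0.91 to 1.65), not called, and 0.70, 0.45 and -0.04 in the 3 mice. The estimate was 1.00 when slide was a block and 1.46 in the largest slide alone. In both, knockout vehicle rested on the array of mouse 3, at -3.47, so mouse and treatment cannot be told apart there. The levels followed the mouse more than the treatment, with mouse 2 highest in both groups. Atp2b1 read 1.43, 1.72 and 1.48 in vehicle and 1.24, 1.49 and 1.52 in calcitriol, an effect of -0.12 (SE 0.14, 95% interval -0.42 to 0.17). Its wild-type effect was 1.63, and the difference between genotypes was called at 1.76 (adjusted p = 0.00579). For Trpv6 the difference of 4.10 was not called (adjusted p = 0.346), and it was called with the mouse as a block (adjusted p = 0.0402).

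The promoters of S100g and Trpv6 are shown because these genes were called in wild type and not in knockout. The windows are the 250 bases before the start of the RefSeq transcript on build GRCm38.p6, minus strand, at chrX:162964600-162964849 for S100g and chr6:41636406-41636655 for Trpv6. Capitals mark the receptor half-site AGGTCA, its variant AGTTCA, the variant with letters GGGTCA and the variant with letters GGTTCA, on either strand.
S100g: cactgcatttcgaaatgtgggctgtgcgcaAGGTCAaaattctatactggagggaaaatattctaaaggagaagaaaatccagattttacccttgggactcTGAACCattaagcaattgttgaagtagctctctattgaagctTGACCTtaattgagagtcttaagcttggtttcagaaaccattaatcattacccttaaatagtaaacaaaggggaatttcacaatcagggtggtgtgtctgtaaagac
Trpv6: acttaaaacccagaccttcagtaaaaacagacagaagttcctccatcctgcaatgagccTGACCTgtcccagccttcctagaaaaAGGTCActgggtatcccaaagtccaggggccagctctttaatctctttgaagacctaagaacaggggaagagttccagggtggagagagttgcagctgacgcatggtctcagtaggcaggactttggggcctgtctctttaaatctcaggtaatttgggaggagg
S100g held 3 such half-sites and Trpv6 held 2. Single half-sites are common: 38.6% of 32851 mouse promoter windows of this length held at least 1. Among the genes called in wild type, 22 had 28 windows, and 14 of these windows, of 13 genes, held a half-site. A pair of these hexamers in the same orientation 3 bases apart was found in 13 windows of all (0.0396%) and in 0 of the 28 windows of those 22 genes. The match is a description of letters and says nothing of binding, and sites outside the windows were not searched.

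The wild-type response was not detected on the knockout arrays. Of the 39 genes called in wild type, 37 higher and 2 lower, 0 were called in knockout and 0 had an unadjusted p under 0.05 there. Their knockout effects ran from -0.43 to 0.97 with a median of 0.02, against a median of 2.06 in wild type, while the median effect of all genes in knockout was 0.04. In knockout 24 of the 39 were above 0, where 59.1% of all genes were. The knockout interval excluded the wild-type estimate for 39 of 39, and for 27 it lay within 2-fold either way. The first count takes each wild-type estimate as fixed, without its own SE, and the choice of genes favours large estimates. These genes were chosen by their wild-type values, so only the knockout values carry information. The difference between genotypes itself was called for 7 of the 39, and 7 of all genes passed that test (0.0289%). With the mouse as a block it was called for 27 of the 39, with 58 of all genes (0.239%).

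**Figure D2:**
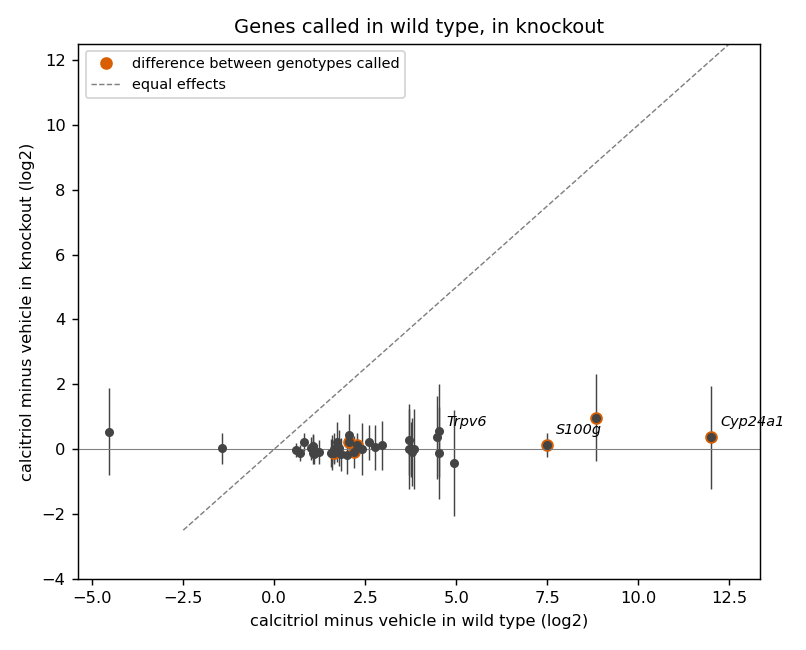
Effect of calcitriol in knockout (y axis, log2, with its 95% interval) against that in wild type (x axis, log2) for the 39 genes called in wild type; orange points have a called difference between genotypes and the dashed line marks equal effects. The knockout effects lie between -0.43 and 0.97 while the median wild-type effect is 2.06.

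Named members of this response span several roles. Cebpd, a transcription factor of the C/EBP family, read 2.37, 1.87 and 1.88 in knockout vehicle and 2.19, 1.87 and 1.79 in calcitriol, an effect of -0.09 (SE 0.22) against 2.20 in wild type, and the difference was called (adjusted p = 0.0418). Gdpd5, a glycerophosphodiester phosphodiesterase, was at 0.14 (SE 0.16) against 2.27, also with a called difference (adjusted p = 0.00579). Atoh1, the transcription factor that commits cells to the secretory fate, was at -0.16 (SE 0.24) against 1.84. Fgf15, the enterokine that represses bile acid synthesis in liver, was at -0.08 (SE 0.48) against 3.79. For Atoh1 and Fgf15 the difference was not called (adjusted p = 0.133 and 0.155) and was called with the mouse as a block (adjusted p = 0.00281 and 0.00266).

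Further wild-type calls gave small knockout effects. C2cd4a was at 0.21, C2cd4b at -0.01, Trim47 at 0.06, Srgap3 at -0.19 and Adh6a, an alcohol dehydrogenase, at 0.12. Slc39a8, a zinc and manganese importer, was at 0.01 (SE 0.22). Mctp2, a membrane protein gene with C2 domains, was below 0 in all 3 knockout mice, at -0.27, -0.08 and -0.14, and above 0 in all 3 wild-type mice. Its difference of 1.25 missed the threshold (adjusted p = 0.0582) and passed with the mouse as a block (adjusted p = 0.0049). Slc30a10, a manganese exporter that was not called in wild type (effect 6.40, adjusted p = 0.0885), varied between mice from -7.72 to -2.77 over the 6 knockout arrays. Its knockout interval without the block was wide, from -2.34 to 2.85 around an effect of 0.25. Within mice the effects were 0.02, 0.20 and 0.54, and with the mouse as a block the Slc30a10 effect in knockout had an SE of 0.28 and the difference between genotypes was called (adjusted p = 0.00259).

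Vitamin D genes were also described by lists chosen with earlier results of these data known. Some members, as S100g, Trpv6 and Atp2b1 in calcium transport, are wild-type calls already described. Of 31 tested genes of the vitamin D response, 0 were called and 0 had an unadjusted p under 0.05, where 5.78% of all genes did, and 15 were above 0 with a median of -0.01. Blocking on slide gave a median of 0.22 for the list and 0.01 for all genes, and the largest slide by itself gave 0.21 and 0.01. Both rest on the knockout vehicle array of mouse 3, without the pairing. Cyp27b1, which makes calcitriol and is repressed by it in kidney, read -5.24, -5.73 and -5.84 in vehicle and -5.30, -5.09 and -5.05 in calcitriol, an effect of 0.45 (SE 0.39). Of 9 genes of vitamin D metabolism, 6 were above 0 with a median of 0.04, or 0.32 when slide was a block, and Cyp2r1, a hydroxylase that makes the hormone's precursor, was highest at 0.91 (SE 0.38, adjusted p = 0.841). Cyp2r1 was far apart in mice 1 and 2, at -0.07 and 0.34 in vehicle against 1.75 and 1.65 in calcitriol, and ran the other way in mouse 3, at 1.19 against 0.79. Of 18 genes of calcium transport 10 were above 0 with a median of 0.02.

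Pdia3 is described because of its proposed role. In the list of receptor partners, coregulators and other receptors it was the 1 gene of 20 whose unadjusted p was under 0.05, where 5.78% of all genes were, so the count is near the background. It read 3.79, 3.92 and 3.90 in vehicle and 3.34, 3.35 and 3.85 in calcitriol, an effect of -0.35 (SE 0.16, 95% interval -0.70 to -0.01, adjusted p = 0.841). Mice 1 and 2 were lower by 0.45 and 0.57, while mouse 3 differed by -0.05 only, so the groups overlapped. In wild type its effect was -0.19. The list as a whole had 11 genes above 0 and a median of 0.01, and none of its genes was called, the partners Rxra, Rxrb and Rxrg and the coactivators Ncoa1, Ncoa2 and Ncoa3 included.

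Targets of other nuclear receptors that sense sterols, bile acids or drugs showed no called gene either. Of 13 tested targets of PXR and CAR, the receptors for drugs and toxic bile acids, 4 were above 0 with a median of -0.09. Cyp3a11, the main drug-metabolising cytochrome of that set, was at 0.76 (SE 0.71, adjusted p = 1.0) with levels of -4.91, -4.81 and -3.62 in vehicle against -2.79, -4.03 and -4.26 in calcitriol, so the groups overlapped. Targets of the bile acid receptor FXR (4 tested) had a median of 0.10, those of the oxysterol receptor LXR (10 tested) -0.04 and those of the retinoic acid receptors (7 tested) -0.03. Blocking on slide turned the sign for FXR, to -0.39, and for the retinoic acid receptors, to 0.22, and gave -0.12 for LXR. These slide-block values rest on the knockout vehicle array of mouse 3, without the pairing. The 6 tested targets of AHR, the receptor of aromatic hydrocarbons, had a median of 0.33, or -0.16 with slide as a block, and the member with the smallest p, Ugt1a6a, was at 0.48 (SE 0.38).

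Sterol and fatty acid synthesis and Hedgehog signalling are the pathways that calcitriol has been proposed to inhibit directly. All 29 sterol and fatty acid genes were measured, 9 were above 0, the median was -0.02, and the interval lay within 2-fold for 28. Insig1, a sensor that holds the pathway's regulator in check, read 1.96, 0.71 and 0.95 in vehicle, and calcitriol minus vehicle was -0.02, 0.21 and 0.15 in the 3 mice, an effect of 0.12 (SE 0.32). The groups overlapped, and mouse 1 was highest in both.

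For Hedgehog, 7 of 12 genes were tested and 4 were above 0 with a median of 0.13. The sign turned to -0.18 when slide was a block and to -0.26 in the largest slide alone. Both values rest on the knockout vehicle array of mouse 3, without the pairing. Ptch1, a receptor of the pathway and its target, was at 0.23 (SE 0.43), and Smo, the transducer that vitamin D metabolites are reported to bind, was at -0.08 (SE 0.20). Gli1, the usual readout of the pathway, was not well above background on any of the 6 knockout arrays and was not tested. Hedgehog ligand Shh and the factors Gli2 and Gli3 were not tested either, since no group had them above background on all arrays.

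Markers of the epithelium had small effects, with the interval within 2-fold for all 12, and no crypt stem cell gene was called. All 12 epithelial markers were measured on all 6 arrays, among them Epcam at 4.98 to 5.66 and Vil1 at 5.22 to 5.72, and their effects ran from -0.20 to 0.16. The crypt stem cell marker Lgr5 read 3.79, 3.56 and 4.12 in vehicle and 3.77, 3.59 and 4.06 in calcitriol, an effect of -0.02 (SE 0.20, 95% interval -0.46 to 0.43). In each mouse the 2 arrays differed by 0.06 or less. With slide as a block the estimate was -0.40, and -0.44 within the largest slide. In both, knockout vehicle rested on the array of mouse 3, at 4.12, so mouse and treatment cannot be told apart there. Ascl2, a stem cell transcription factor, was at -0.11 (SE 0.32). The 21 genes of the crypt and Wnt list had a median of -0.05 with 7 above 0, and of -0.27 when slide was a block. Their effects ran from -0.31 for Ephb3 (SE 0.15) to 1.01 for Nkd1 (SE 0.92), and Notum was at 0.71 (SE 0.37). Nkd1 was above 0 in all 3 mice, at 1.51, 0.29 and 1.24, and at -1.37 with slide as a block. In bulk RNA, fewer cells of a type and less RNA per cell cannot be told apart.

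Proliferation and differentiation genes had medians near 0 without a block. Mki67, a marker of dividing cells, was at 0.06 (SE 0.20), and 25 proliferation genes had a median of -0.06. Car1, a carbonic anhydrase of colonocytes, was at -0.14 (SE 0.21), and 16 colonocyte genes had a median of 0.02. Muc2, the mucin of goblet cells, was at -0.10 (SE 0.21), and 20 goblet and secretory genes had a median of -0.02, or 0.20 with slide as a block. Enteroendocrine genes (15 tested) had a median of -0.11, or 0.54 with slide as a block, while the medians by mouse were -0.21, -0.20 and 0.30. The stress and signalling lists were close to 0 in the fit without a block: interferon 0.02, NF-kB and chemokines -0.05, NRF2 -0.06, hypoxia and glycolysis 0.01, p53 -0.01 and ER stress with ATF4 targets 0.00. They moved when slide was a block, to 0.37 for interferon, 0.30 for NF-kB and chemokines and -0.26 for NRF2. Hypoxia and glycolysis moved to -0.28 and ER stress to -0.31, while p53 was at 0.03. Such slide-block medians rest on the knockout vehicle array of mouse 3 and do not use the pairing.

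The 3 lists with the largest medians were of cells that should be rare or absent in these cultures. All 9 tested immune markers had effects above 0, with a median of 0.68, and so had all 7 endothelial, neural and glial markers, with a median of 0.46. For tuft cells the median was 0.56, with 8 of 11 genes above 0. The 5 tested fibroblast and muscle markers had a median of 0.18, or -0.18 when slide was a block. None of these genes was called. Taken by mouse, the immune medians were 1.41, 0.98 and -0.20, the endothelial, neural and glial medians 1.26, 0.53 and -0.17, and the tuft medians 0.89, 0.71 and -0.03. Mice 1 and 2 were high, and mouse 3 was not. Of the defining markers, Ptprc, carried by all leukocytes, was well above background on 0 of 3 vehicle arrays and 1 of 3 calcitriol arrays, and Dclk1, of tuft cells, on 2 and 3. Of the 17 immune markers on the array, 6 to 7 were well above background on a vehicle array and 8 to 10 on a calcitriol array, and the sum of their linear signals, in units of the 75th percentile, was 12.9 to 16.1 and 13.8 to 28.7. With slide as a block the immune median was 0.51, the endothelial, neural and glial one 0.21 and the tuft one -0.02. The part of slide and of signal strength in these medians was not tested.

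**Figure D3:**
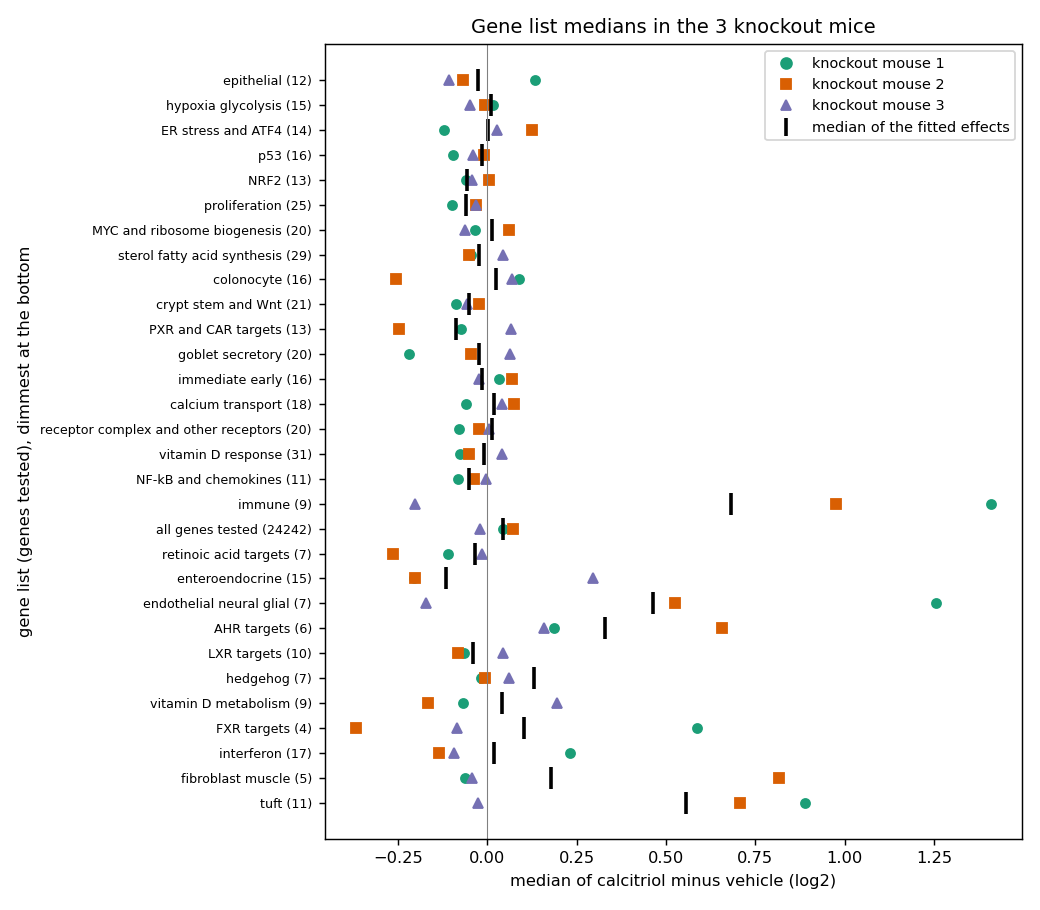
Median effect of calcitriol (x axis, log2) in each knockout mouse (coloured points) and of the fitted effects (black bars) for 29 gene lists and for all genes, ordered by mean level with the dimmest at the bottom. Most lists lie near 0, and the immune, endothelial, neural and glial, and tuft medians are high in mice 1 and 2 and below 0 in mouse 3.

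Dim genes as a whole shared that pattern. Of the 3 lists only the tuft genes were dim, with a median level of -4.36. The immune genes, at -0.52, and the endothelial, neural and glial genes, at -0.95, were near the -0.54 of all genes. In the dimmest of 4 equal parts of the genes, by mean level, the median effect was 0.95 in mouse 1, 0.50 in mouse 2 and -0.11 in mouse 3, and in the brightest it was -0.04, 0.00 and -0.03. The vehicle arrays of mice 1 and 2 had 55.0% and 55.7% of spots well above background and their calcitriol arrays 62.3% and 64.2%, while mouse 3 had 66.4% and 62.8%. The 187 tested odorant receptor genes, which act in the nose and had a median level of -4.68, showed the same. Their median effects were 1.66, 0.97 and -0.16 in the 3 mice, and 175 of them had a fitted effect above 0.

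The genes with the smallest p in the higher direction all lay below the 75th percentile. Cma2, a mast cell protease gene, read -2.42, -2.19 and -1.98 in vehicle and -0.89, -1.32 and -1.45 in calcitriol, an effect of 0.97 (SE 0.21, adjusted p = 0.841). Unc79, part of a sodium leak channel of neurons, read -2.83, -2.90 and -2.37 against -1.02, -1.55 and -1.99, an effect of 1.18 (SE 0.26). Both were above vehicle in every mouse, and both had their smallest effect in mouse 3, at 0.53 and 0.38. Other genes by the same rule were 1700016H13Rik at 1.16, Abhd12b at 1.43, Ltb4r2, a leukotriene receptor gene, at 1.21, and 3 odorant receptor genes.

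Those 3 odorant receptor genes, Olfr103, Olfr97 and Olfr94, lie in 1 cluster on chromosome 17, where 15 genes start between Olfr94 and Olfr103 and 6 were tested. Olfr103 read -5.77, -5.59 and -5.57 in vehicle and -4.11, -4.37 and -4.24 in calcitriol, an effect of 1.40 (SE 0.31, adjusted p = 0.841). It was the steadiest of them, with 1.66, 1.22 and 1.33 in the 3 mice, and all 3 wild-type mice were below 0, at -0.27, -0.76 and -0.19. The difference between genotypes was not called (-1.81, adjusted p = 0.842). Olfr97 was at 1.66 (SE 0.37) and Olfr94 at 2.08 (SE 0.52), with mouse 3 again lowest, at 0.91 and 0.47. Of the neighbours, Olfr96 was at 0.68 and Olfr95 at 0.58, and H2-M3 at -0.16. Olfr103 was well above background on 1 of 3 vehicle arrays and on all 3 calcitriol arrays, the latter as the naming rule required.

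Ces2h, a carboxylesterase gene, had the smallest p in the lower direction. It read -4.87, -2.86 and -5.06 in vehicle and -7.07, -8.17 and -7.65 in calcitriol, and was well above background on 3 of 3 vehicle arrays and 0 of 3 calcitriol arrays. The 3 of 3 was required by the naming rule, and the probe was kept through knockout vehicle alone. The fitted effect of -3.36 (SE 0.71) had an adjusted p of 0.841. Against the lowest signal that counts as above background, calcitriol was at least 2.61-fold lower. The direction was the same in each genotype, since the wild-type mice were at -3.18, -2.42 and -2.52, with 1 of 3 wild-type vehicle arrays above background and 0 of 3 calcitriol arrays.

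Fsd2, which encodes a fibronectin type III and SPRY domain protein, showed the same pattern. It read -5.03, -4.69 and -5.26 in vehicle and -6.29, -8.19 and -7.77 in calcitriol, on 3 and 0 arrays above background, an effect of -2.42 (SE 0.84, adjusted p = 0.841) or at least 1.58-fold lower. Signal on all 3 vehicle arrays was again required by the naming rule, and only knockout vehicle kept the probe. The wild-type mice were at -5.83, -3.13 and -1.89, with 1 of 3 wild-type vehicle arrays above background and 0 of 3 calcitriol arrays, so these differences are set against background. Ces2h and Fsd2 were the 2 genes with a symbol lower by over 1 in all 6 mice. With the normexp background correction, which compresses dim signals, the Ces2h effect in knockout was -0.52 and the Fsd2 effect in knockout -0.26, neither called. Both genes are set side by side for their pattern over the mice, which was seen before it was tested. By limma the effect averaged over both genotypes was -3.04 for Ces2h (adjusted p = 0.122) and -3.02 for Fsd2 (adjusted p = 0.316). With arrays scaled to the median that test passed for both (adjusted p = 0.00351 and 0.0337). Without replicate 3 it passed for Ces2h only (adjusted p = 0.04996), and the other alternatives gave no call. The genes were chosen by the values of these same 6 mice. The outcome was therefore partly fixed by the choice, and a pass lends the pattern no support. Most of the wild-type arrays were in the background.

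The other genes of small p in the lower direction differed by little. Sp110, a nuclear body gene, read 7.51, 7.55 and 7.72 in vehicle and 7.24, 7.38 and 7.23 in calcitriol, an effect of -0.31 (SE 0.10, adjusted p = 0.841), and its other 2 probes gave means of -0.56 and 0.15. Zcchc9 was at -0.33 (SE 0.11), Ms4a4c at -0.31 (SE 0.11), Mtfr2 at -0.35 (SE 0.13) and Scoc at -0.52 (SE 0.19). Each was lower in every mouse without overlap of the groups, as the naming rule required, and none was called. Groups that did not overlap were found for 342 of all genes in this direction (1.41%) and for 1470 in the other (6.06%).

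Myc, the growth-promoting transcription factor and a known target of the receptor in colon cells, had the lowest effect of the genes named in the lower direction that were bright. It read 3.44, 4.16 and 3.96 in vehicle and 2.97, 3.41 and 0.85 in calcitriol, an effect of -1.44 (SE 0.50, adjusted p = 0.841), and in mouse 3 alone -3.11. The probe has 2 spots on each array. On the calcitriol array of mouse 3, 1 spot read -2.40 and the other 4.10, where on each of the other 5 arrays they differed little, as at 4.06 and 3.86 on the vehicle array of the same mouse. The spot outside that area gave effects of -0.45, -0.77 and 0.23 in the 3 mice. With the spot left out the effect was -0.37 (SE 0.27, adjusted p = 0.959), so the Myc value rested on 1 spot. Its gene list of MYC and ribosome biogenesis (20 tested) had a median of 0.01, and the 16 immediate early genes had -0.01.

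Such single-array losses were clustered on the array surface. Of 10515 genes above the 75th percentile on at least 5 of the 6 knockout arrays, 36 were apart by over 2 on 1 array, always lower, 17 on the calcitriol array of mouse 1 and 19 on that of mouse 3, and none on the other 4 arrays. On the array of mouse 1 their spots lay within rows 60 to 85 and columns 140 to 146, and on that of mouse 3 within rows 125 to 143 and columns 31 to 36, apart from the second Myc spot, on a grid of 384 rows and 164 columns. Those rectangles hold 174 and 108 spots. Cebpb read -4.90 on the first of these arrays and 2.45 to 3.01 on the others, Ccnb2, a mitotic cyclin, -0.96 against 4.70 to 5.13, and Srm, a polyamine enzyme, -2.59 on the second against 3.13 to 3.80. A second Srm probe elsewhere read 2.85 on that array, within its range of 2.55 to 3.27 on the other 5.

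**Figure D4:**
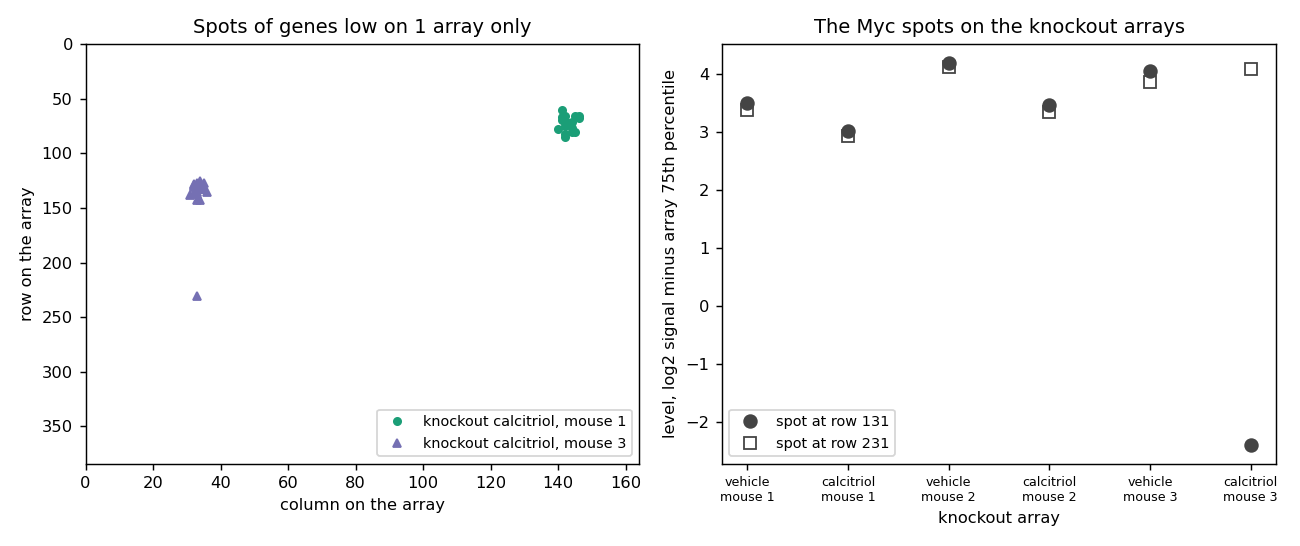
Left, row (y axis) and column (x axis) on the array of the spots of 36 genes that were lower by over 2 on 1 knockout array than on the other 5. Right, level (y axis, log2) of the 2 Myc spots on the 6 knockout arrays; the spot at row 131 reads -2.40 on the calcitriol array of mouse 3 and the spot at row 231 reads 4.10.

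These areas held most of the genes with an effect under -1. Of 87 genes lower by over 1 in knockout, 64 had their probe there, and of the other 23 only 4 were well above background on all 6 arrays. Within the rectangles 86 genes were lower by over 1 in the mouse concerned, and 14 of these had another probe outside. The 17 other probes were between -0.34 and 3.19 there, with a median of 0.14, where the probes inside had a median of -5.79. With the spots of the rectangles left out, chosen after seeing the data, 0 genes were called, and 0 with the mouse as a block. The deposited outlier marks had not removed these spots.

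The 3 knockout mice did not move together. Across the 19893 genes well above background on all 12 arrays, effects of mice 1 and 2 correlated at 0.74, while mouse 3 correlated with them at -0.32 and -0.30. Mouse 1 of the wild type, whose vehicle array was on slide 2 and calcitriol array on slide 3, correlated with knockout mice 1 and 2 at 0.60 and 0.67 and with knockout mouse 3 at -0.35. Wild-type mouse 2, on the same slides, correlated less with knockout mice 1 and 2, at 0.20 and 0.29, and with knockout mouse 3 at -0.20. For wild-type mouse 3, with both arrays on slide 3, the values were -0.22, -0.19 and 0.03. These correlations are across genes, which are not independent, and the mice share no array. Knockout mouse 3 is the one whose calcitriol array was off slide 3 and whose vehicle array was on it, the reverse of mice 1 and 2.

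Leaving out replicate 3 gave 149 called genes in knockout (0.615%), all higher, of which 30 had a symbol. Those with the smallest p were Rps21, a ribosomal protein gene, Ly6f, Siglech, Rab3c, Dnase2a, the heat shock cognate Hspa8, Slurp2 and Car4. Rps21 read 4.74, 4.93 and 6.34 in vehicle and 6.42, 6.31 and 4.81 in calcitriol, so that mice 1 and 2 were at 1.68 and 1.37 and mouse 3 at -1.52. Hspa8 read 6.83, 6.91 and 7.70 against 7.84, 7.70 and 6.99, and its other 2 probes gave means of -0.07 and 0.12. In each case the high arrays were those of slide 3. In knockout mouse 3, 140 of the 149 were below 0 with a median of -0.84.

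Across all 12 arrays the median level of the 149 genes was 2.26 to 2.94 on the 7 arrays of slide 3. On the 5 others it was 1.22 to 1.49, with both genotypes on each side. Off slide 3 the only calcitriol array was that of knockout mouse 3, at 1.40. On slide 3 the vehicle arrays were those of mouse 3 of knockout and wild type, at 2.26 and 2.78. All 7 arrays of slide 3 were above all 5 others for 134 of the 149 (89.9%), against 1479 of all genes (6.10%). The 149 genes were called on knockout mice 1 and 2, with calcitriol on slide 3 and vehicle on slide 1. The splits by slide were therefore partly fixed by that choice. In wild type, mice 1 and 2, with vehicle on slide 2 and calcitriol on slide 3, had 149 of 149 above 0, and wild-type mouse 3, with both arrays on slide 3, had 39. With slide as a block 0 of the 149 were called and their median effect was 0.36. In mice 1 and 2 alone, slide and treatment cannot be told apart.

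**Figure D5:**
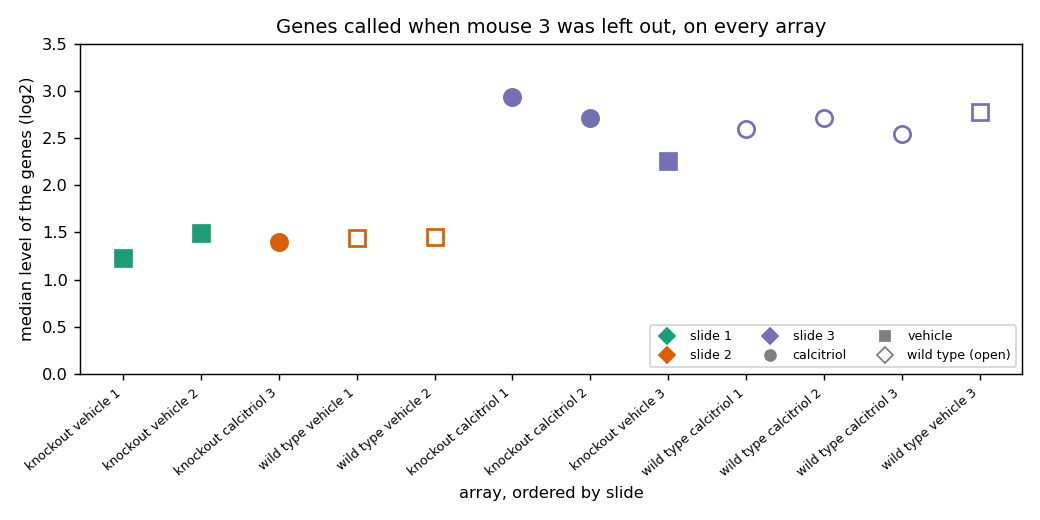
Median level (y axis, log2) of the 149 genes called in knockout when replicate 3 was left out, on each of the 12 arrays (x axis), coloured by slide; filled points are knockout and open points wild type, circles calcitriol and squares vehicle. The 7 arrays of slide 3 lie at 2.26 to 2.94 and the 5 others at 1.22 to 1.49. Off slide 3 the only calcitriol array is that of knockout mouse 3. The genes were called on knockout mice 1 and 2, with calcitriol on slide 3 and vehicle off it, so the split is partly fixed by the choice.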

How the data were processed

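RNA from 12 colonic organoid cultures was hybridised to 1-colour Agilent mouse arrays, from 100 ng each. The deposited scanner files hold spot intensities that Agilent Feature Extraction 11.5.1.1 had background-corrected to a processed signal, per the file headers, and their probe annotation refers to mm9. From them, log2 of the processed intensity minus the array's 75th percentile was computed. Control spots and spots with outlier marks were left out, spots of a probe were averaged, and a probe was kept if some group had it well above background on each of its 3 arrays (33406 of 55681). The probe with the highest mean stood for a gene, giving 24242 genes, 14904 of them with a symbol. Probe names are those of the array design.

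The fit used limma 3.58.1 in R 4.3.3 with a variance trend, a mean per group and 8 residual degrees of freedom, which treats both arrays of a mouse as independent. p-values were two-sided and adjusted by Benjamini-Hochberg over all genes. The number of arrays limits the precision. Replicate numbers within a genotype name the mouse, per the labels, and deviations from the group means correlated within pairs at 0.25, 0.59 and 0.10 in knockout and 0.57, 0.32 and 0.32 in wild type, so the mouse was used as a block in an alternative fit. Other alternatives were slide as a block, the largest slide alone, other scalings, normexp with an offset of 50, other filters, array weights and each replicate left out. The normexp fit was planned on mean spot signals and used median spot signals. The fit with mouse and slide as blocks and the removal of spots in 2 areas were chosen after seeing the data.

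The fixed genes, the 8 higher and 8 lower genes of smallest p that moved alike in all 3 mice without overlap, the 15 wild-type genes of smallest p, the 8 smallest-p calls without replicate 3, and up to 4 members and the defining ones of each list could be named. Genes outside this rule that the text names, among them AK132218, Srm, Cebpb, Ccnb2, Olfr95, Olfr96 and H2-M3, were chosen after their values were seen. Samples, lists and tests were chosen with earlier results of these data known. Promoter sequences are RefSeq's, build GRCm38.p6, matched by symbol. The fits were tested on simulated data. Results on some fixed genes are not reported here.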

Additional observations from a re-analysis of the deposited data

Results flagged for a closer look

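The effect of calcitriol differed between genotypes by limma's test of the difference, wild type minus knockout, for 5 named genes. The difference was 11.63 for Cyp24a1 (log2, adjusted p = 0.00136), whose knockout arrays were all in the background, so this value rests on background signal on 1 side. S100g differed by 7.37 (adjusted p = 3.69e-08) and Atp2b1 by 1.76 (adjusted p = 0.00579). Cebpd differed by 2.29 (adjusted p = 0.0418) and Gdpd5 by 2.13 (adjusted p = 0.00579).

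In 4 other named genes all 3 mice of a genotype lay on 1 side of 0 and all 3 of the other genotype on the opposite side, and the test of the difference did not pass. Mctp2 was below 0 in knockout and above it in wild type, a difference of 1.25 (adjusted p = 0.0582). Sp110 and Ms4a4c ran the same way, with differences of 0.37 and 0.46 (adjusted p = 1.0 each). Olfr103 was above 0 in knockout and below it in wild type, a difference of -1.81 (adjusted p = 0.842).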

How the results depend on the processing

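The count of genes called in knockout, 0, was 0 in every alternative listed in the methods as not chosen after seeing the data, except without replicate 3, which gave 149, so leaving out replicates gave 0 to 149. With mouse and slide as blocks, chosen after seeing the data and with 2 residual degrees of freedom, 48 genes were called. Of these 29 were lower, 26 of them in the low area on the array of mouse 3. Myc was among the 26 (Myc effect in knockout -3.99, adjusted p = 6.50e-05). The other 19 were higher, 16 of them with the effect of every knockout mouse within 1 of 0. With both areas left out that fit called 20, 17 higher and 3 lower, and Myc was at -0.75 (adjusted p = 0.620). With the mouse as a block alone, which uses the pairing, the count stayed 0. The count of wild-type calls whose difference from knockout was called, 7 of 39, was 27 with the mouse as a block and 28 with the mouse as a block and the areas left out. It was 1 with slide as a block, 2 within the largest slide, 16 when scaled to the median, 11 with quantile normalization, 17 with array weights and 4 of 32 among genes above background on all 6 knockout arrays. Leaving out replicates gave 1 (without replicate 2, 2 without replicate 3) to 8. The cause was not tested, apart from fewer genes or arrays in some alternatives.

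Over 56 named genes and 25 alternatives, 10 of 1390 values were called, 9 of them without replicate 3, and 107 had the other sign. Of 725 list medians 168 had the other sign. Scaling to the median moved the median of all genes from 0.04 to -0.25. Counts at an unadjusted p under 0.05 ran from 189 without replicate 1 to 3496 without replicate 3. Dim genes near background have little signal to test, and 3 mice limit what could be seen.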

Other observations

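Of 24242 genes, 42 were higher by over 1 in all 3 knockout mice and 4 were lower by over 1. Of the 42, 15 had a symbol. Well above background on all 3 calcitriol arrays were 29, which is itself 1 way to pass the probe filter. Those with a symbol were well above background on 0 or 1 of 3 vehicle arrays, so their differences are set against background. The 4 lower genes were above background on all 3 vehicle arrays. None was called by limma. Over all 6 mice of both genotypes, 2 genes were higher and 3 lower by over 1.

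Among bright genes outside the low areas, AK132218 was at -3.49 in knockout mouse 1 and at -0.02 and 0.14 in mice 2 and 3, a mean of -1.13 (adjusted p = 0.984 by limma). Rxrg, a partner of the vitamin D receptor, read 1.09, 1.70 and 1.79 in knockout vehicle and 2.42, 2.35 and 1.62 in knockout calcitriol. Its effect was 0.60 (SE 0.28, adjusted p = 0.841 by limma). The calcitriol arrays of mice 1 and 2, on slide 3, were the highest. The vehicle array of mouse 3, also on slide 3, read 1.79, close to the 1.70 of mouse 2 on slide 1. The part of slide was not tested.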
